A study of Schizosaccharomyces pombe with 9 samples.

Results

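U3 is the small nucleolar RNA that fission yeast (Schizosaccharomyces pombe) makes from 2 genes, snu3 on chromosome I and snu32 on chromosome II. The data examined here are the positions called inside these genes, on their own strand. They were called in RNA recovered with the tagged histone deacetylase Clr3, with or without crosslinking. The rule took every listed position between I 987570 and 987825 (minus strand, snu3) and between II 3958832 and 3959086 (minus strand, snu32). Crosslinked replicate 1 gave 6 of its 6661 positions, crosslinked replicate 2 gave 9 of its 4824, and the library made without crosslinking gave 1 of its 135. These are 11 distinct nucleotides, 5 in snu3 and 6 in snu32.

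The assay was PAR-CLIP: cells take up the uridine analogue 4-thiouracil, light at 365 nm joins it to bound protein, and the joined base is then copied so that the read has C in place of T. The 3 libraries shared 1 strain, an h+ strain whose clr3 gene ends in a 3HA-TAP tag marked with kan MX, with ura4+ inserted at imr1R(NcoI) and with ura4-delta18, leu1-32 and ade6-M216. Cells were grown at 30 °C with 100 µM 4-thiouracil and then for 4 h with a further 900 µM, with glucose at 4% and uracil at 10 mg/l. Crosslinked libraries (2) received 12 J/cm2, and the control (1) is a no-crosslink library by its title and the series design, although its protocol text is that of the others. No library from untagged cells was among those analysed, so contacts of Clr3 cannot be told apart from those of other proteins on the beads. The control is 1 library, whose own spread cannot be measured, and no test between crosslinked and control conditions was made.

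U3 is a box C/D small nucleolar RNA, but unlike most of that family it guides no methylation. Its 5' part pairs with the precursor of ribosomal RNA, and with its proteins it forms the core of the small subunit processome, which folds and cuts the 18S rRNA precursor in the nucleolus. Conserved sequence boxes (A and A' near the 5' end, C', B, C and D further in) are the sites of pairing and of protein assembly. Clr3 belongs to the SHREC complex of heterochromatin and is not a known U3 protein.

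The 2 RNAs are shown here because where they are the same and where they differ decides what can be read from each position. Each is printed 5' to 3' as DNA letters from the RefSeq genome (ASM294v3), with the T positions called in a crosslinked library in capitals. The first is the stretch of chromosome I that aligned with snu32 (I:987692-987947, minus strand), and the second is snu32 as annotated (II:3958832-3959086, minus strand).
snu3, aligned span: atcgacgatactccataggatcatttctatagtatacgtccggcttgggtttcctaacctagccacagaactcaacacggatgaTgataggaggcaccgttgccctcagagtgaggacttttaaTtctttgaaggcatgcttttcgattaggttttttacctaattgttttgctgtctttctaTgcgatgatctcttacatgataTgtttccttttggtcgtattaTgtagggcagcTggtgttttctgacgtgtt
snu32: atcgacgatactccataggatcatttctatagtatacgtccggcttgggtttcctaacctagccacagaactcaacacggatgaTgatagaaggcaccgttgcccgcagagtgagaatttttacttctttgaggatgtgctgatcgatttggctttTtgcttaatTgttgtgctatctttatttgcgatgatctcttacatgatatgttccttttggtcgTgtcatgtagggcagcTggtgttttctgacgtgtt

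The annotated snu3 gene and the stretch that matches snu32 do not have the same ends. The matching stretch is 256 nt long, and 234 of its 255 aligned base pairs with snu32 (91.8%) were identical. It begins 122 nt upstream of the annotated snu3 start, and the annotated gene runs 122 nt past its end. The first annotated base of snu3 is thus base 123 of the stretch, and only its last 134 nt lie inside the annotation. Identity did not reach beyond the stretch: over the 100 nt before it 37.0% of bases matched those before snu32, and over the 100 nt after it 32.0% matched. The 122 annotated nt past the stretch hold 49 T positions and had 0 calls in the 3 libraries. Since only called positions are listed, 0 calls sets no limit on binding there. In what follows, positions are counted from 1 at the first base of the aligned stretch for snu3 and at the first annotated base for snu32, and the rule still decides what counts as a snu3 member.

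The first 90 bases were identical in both copies, and the 21 substitutions lay between bases 91 and 224 of snu32. They are written with the snu3 base, its position in the aligned stretch and the snu32 base, and run from G91A to T225C. In the alignment 1 base, at position 208 of the snu3 stretch, had no partner in snu32. Of the windows of 30 nt inside each RNA, 72.2% (snu3) and 72.1% (snu32) occurred once in the genome. For 20 nt the shares were 62.0% and 61.9%, and for 40 nt 76.5% and 76.4%. Reads that lie wholly in the first 90 bases, or wholly in the last 31, which are also identical, cannot be told apart between the copies. The sources used here do not give how the authors placed such reads.

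**Figure D1:**
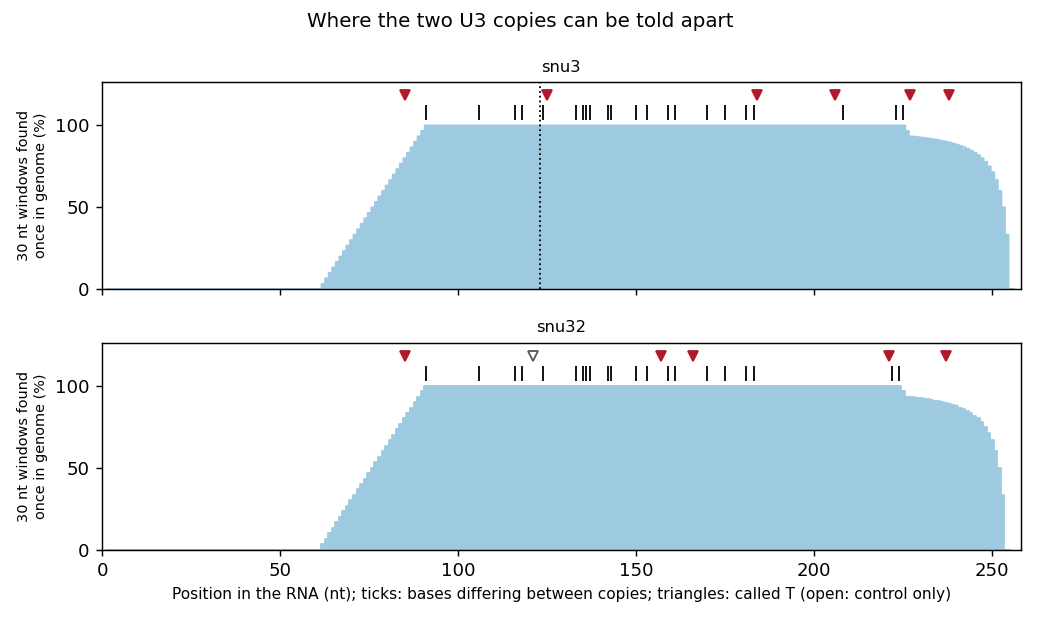
Share of the 30 nt windows covering each base that occur once in the genome (y axis, %, windows inside the RNA only) against position in the RNA (x axis, nt), for snu3 (top) and snu32 (bottom). Black ticks mark the 21 substitutions and, in snu3, base 208, which has no partner in snu32. Triangles mark the called T positions (open: control only), and the dotted line base 123, where the annotated snu3 begins. All calls but the pair at position 85 lie after base 90. Positions 227 and 238 of snu3 and 237 of snu32 lie in the last 31 nt, which are also identical in both copies.

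The conserved boxes were looked for on the RNA strand by short motifs. TGATGA, the core of box C and C' motifs, was present once in the stretch and once in snu32, at bases 82 to 87, and it was also in 45.5% of 66 annotated snoRNA genes and in 11.6% of all 256 nt windows of the genome, each strand counted. CTGA, the box D core, was at base 247 of the snu3 stretch and at bases 140 and 246 of snu32, against 74.2% of snoRNA genes and 55.5% of windows. GATCAT, part of the box A of other U3 RNAs, was at base 19 of both, against 4.55% of snoRNA genes and 6.33% of windows. TCAGGA, searched for as another part of box A, was in neither copy, and it was in 5.65% of windows. Bases 19 and 82 of the stretch come before the first annotated base of snu3. The annotated snu3 thus holds neither this GATCAT nor this TGATGA, and it has another TGATGA at annotated base 171, past the end of the stretch. None of these matches in the stretch or in snu32 overlapped another. A match of letters is a description and not a proven site. Only exact matches were counted, so a box with other letters would be missed.

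Together the annotated copies held 1.40% of the nuclear conversions of crosslinked replicate 1 (Wilson 95% interval 1.24 to 1.58) and 1.93% of crosslinked replicate 2 (1.69 to 2.21), a mean of 1.66% ± 0.377 (SD, n = 2). In the control they held 0.452% (0.176 to 1.16), from 4 converted reads at 1 position of snu32. Separate cultures are not stated for the replicates, so this SD may measure technical spread alone, and all intervals cover counting error only. In snu32 alone, the control share lay below the crosslinked shares of 0.836% and 1.03%, but the difference did not pass the Fisher exact test on conversions (adjusted p = 0.399 and 0.167). That test ran over the 91 and 81 genes with calls in both libraries, of which 31.9% and 24.7% were called, and it compares libraries, not conditions. Outside rRNA and tRNA genes the snu32 comparison of crosslinked replicate 1 with the control changed direction (adjusted Fisher exact p = 0.808), and at positions with at least 20 reads crosslinked replicate 2 passed (0.047). snu3 had 0 positions in the control and could not be tested there.

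Among all 66 snoRNA genes, snu32 and snu3 ranked first and second by mean share of conversions. They took 33.5% of the snoRNA conversions of crosslinked replicate 1 (259 of 773, interval 30.3 to 36.9) and 40.6% of those of crosslinked replicate 2 (206 of 508, 36.4 to 44.9). In the control it was 4 of 25 (16.0%, 6.4 to 34.7). The crosslinked totals count some conversions more than once, because a position in overlapping snoRNA genes counted for each. For example, SPNCRNA.1394 and snR3 both list the same 27 and 9 conversions of crosslinked replicates 1 and 2. Counted once, the totals would be smaller and the U3 shares of the crosslinked libraries higher, and their intervals do not allow for this. The overlapping genes had no conversions in the control. The third snoRNA was snR30, an H/ACA RNA also needed for 18S rRNA production, with 0.198% of conversions against 0.933% ± 0.138 for snu32 and 0.73% ± 0.239 for snu3 (SD, n = 2). Among the 76 snoRNA, snRNA and other structural RNA genes compared, snu32 came after the U6 snRNA snu6 (2.19%) and before the RNase P RNA rrk1 (0.832%), and snu3 came after rrk1 and before the U5 snRNA snu5 (0.564%). Per length the order changed. snu32 had 60.8 and 43.1 conversions per 100 nt in the crosslinked libraries and snu3 40.6 and 37.5, while rrk1 had 15.7 and 10.9 and snu5 81.7 and 53.3. The snu3 values are for the annotated 256 nt, of which 122 lie past the aligned stretch and had no calls. Over the aligned stretch, also 256 nt, snu3 had 130 and 110 conversions, against 155 and 110 in the 255 nt of snu32. In these RNAs abundance and contact cannot be told apart, since no RNA-seq values were used.

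**Figure D2:**
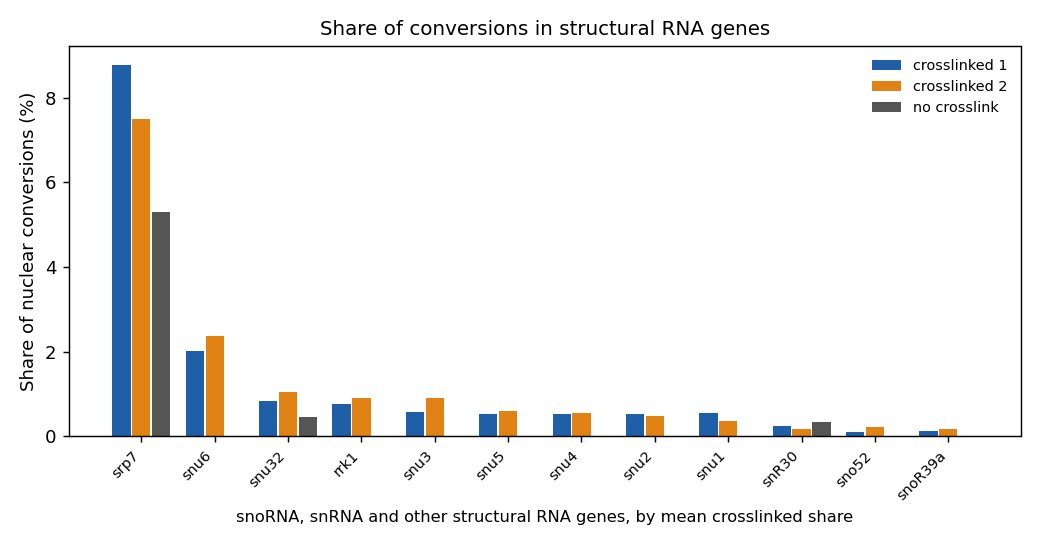
Share of nuclear conversions (y axis, %) in the 12 snoRNA, snRNA and other structural RNA genes with the highest mean crosslinked share (x axis), in crosslinked replicate 1 (blue), crosslinked replicate 2 (orange) and the no-crosslink control (grey). Both U3 genes stand above snR30, the next snoRNA, in each crosslinked library, and only srp7, snu32 and snR30 of these 12 have a control bar.

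In snu3, 3 positions were called in both crosslinked libraries and 2 in replicate 2 alone. Position 227 (I 987721) had most conversions, with 50 of 4855 reads in crosslinked replicate 1 and 33 of 2727 in crosslinked replicate 2, or 1.03% (0.782 to 1.36) and 1.21% (0.863 to 1.69). Position 238 (I 987710), which lies 9 nt before the CTGA of box D, followed with 42 of 4597 reads (0.914%, 0.677 to 1.23) and 25 of 2579 (0.969%, 0.657 to 1.43). Both sat in the last 30 nt of the RNA, and in each library their conversions outnumbered those at the other snu3 positions.

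Position 184 (I 987764) was converted in 12 of 984 reads of crosslinked replicate 1 (1.22%, 0.699 to 2.12) and in 11 of 569 of crosslinked replicate 2 (1.93%, 1.08 to 3.43). In crosslinked replicate 2, position 206 (I 987742) added 16 of 1405 reads (1.14%, 0.702 to 1.84). Position 125 (I 987823), the third annotated base of snu3, added 11 of 354 reads there (3.11%, 1.74 to 5.48). This last had the fewest reads and the highest conversion percent of the snu3 positions.

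In snu32, 2 positions were called in both crosslinked libraries, 1 in replicate 1 alone and 2 in replicate 2 alone. Position 221 (II 3958866) had the most conversions and the most reads of the called positions of either copy. It had 104 of 8523 reads (1.22%, 1.01 to 1.48) in crosslinked replicate 1 and 51 of 4691 (1.09%, 0.828 to 1.43) in crosslinked replicate 2. It took 104 of the 155 snu32 conversions of crosslinked replicate 1 and 51 of the 110 of crosslinked replicate 2. Position 166 (II 3958921) had 23 of 1270 reads (1.81%, 1.21 to 2.70) and 15 of 775 (1.94%, 1.18 to 3.17). At both positions the intervals of the libraries overlapped.

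Position 85 of snu32 (II 3959002) was called in crosslinked replicate 1 with 28 of 2545 reads (1.1%, 0.762 to 1.59), and it is the fourth base of the TGATGA motif. In crosslinked replicate 2, position 237 (II 3958850) had 37 of 3988 reads (0.928%, 0.674 to 1.28) and position 157 (II 3958930) had 7 of 502 (1.39%, 0.677 to 2.85). The control position of snu32 was another one, position 121 (II 3958966), with 4 of 344 reads (1.16%, 0.453 to 2.95). It was called in neither crosslinked library, and no U3 position was called both with and without crosslinking.

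**Figure D3:**
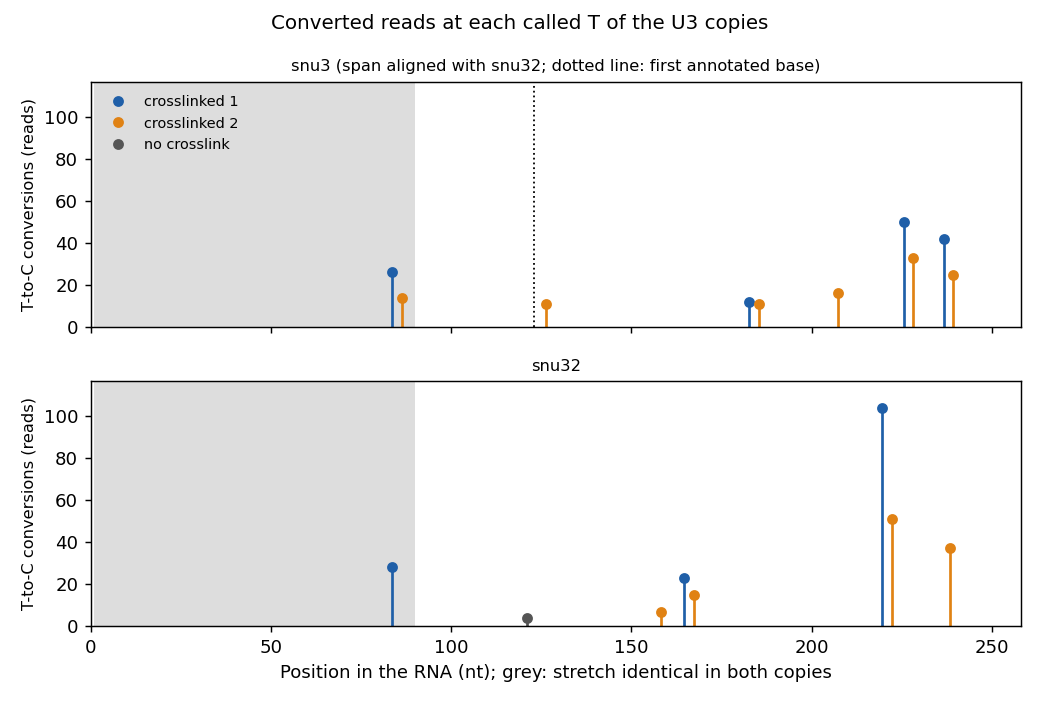
T-to-C conversions in reads (y axis) at each called T against position in the RNA (x axis, nt), for the snu3 stretch (top) and snu32 (bottom), in crosslinked replicate 1 (blue), crosslinked replicate 2 (orange) and the control (grey); markers of the replicates are set slightly apart for clarity. Position 221 of snu32, with 104 and 51 conversions, is the highest in each crosslinked library, and the control has 1 marker of 4 conversions.

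Among the called positions of each copy, those with most reads lay near the 3' end, while reads elsewhere in the RNA are not listed. In snu3 the reads at called positions went from 984 at position 184 to 4855 at position 227 in crosslinked replicate 1, and from 354 at position 125 to 2727 at position 227 in crosslinked replicate 2. In snu32 they went from 1270 at position 166 to 8523 at position 221, and from 502 at position 157 to 4691 at position 221. Position 85 of snu32, nearer the 5' end, had 2545 reads, above position 166. Base 85 of the snu3 stretch, outside the annotated gene, had 2733 and 1201, above the 984 and 569 at position 184. In crosslinked replicate 1 the 6 U3 positions had the same order by conversions as by reads.

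**Figure D4:**
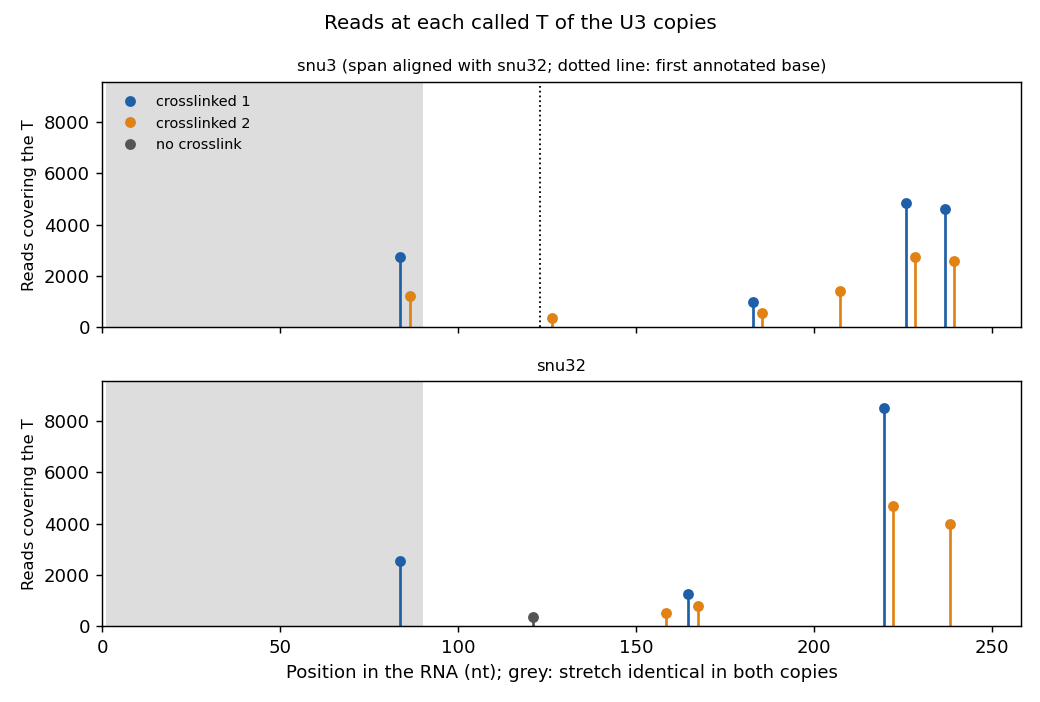
Reads covering each called T (y axis) against position in the RNA (x axis, nt), with panels, colours and marker offsets as in the plot of conversions. The highest values are at position 221 of snu32, with 8523 and 4691 reads.

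Between the replicates no shared U3 position passed the test for a difference in conversion percent. Over the 276 nuclear positions called in both crosslinked libraries, the Fisher exact test on reads with Benjamini-Hochberg adjustment called 0 (0%), with 16 at an unadjusted p under 0.05. The lowest unadjusted p among the 5 shared U3 positions was 0.28, at position 184 of snu3. A p that misses the threshold does not show that the values are equal, and the intervals above give the range left. Reads at these 5 positions were 1.64 to 1.82 times as many in crosslinked replicate 1 as in crosslinked replicate 2, against a median of 2.05 over all 276 (quartiles 1.78 and 2.53).

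**Figure D5:**
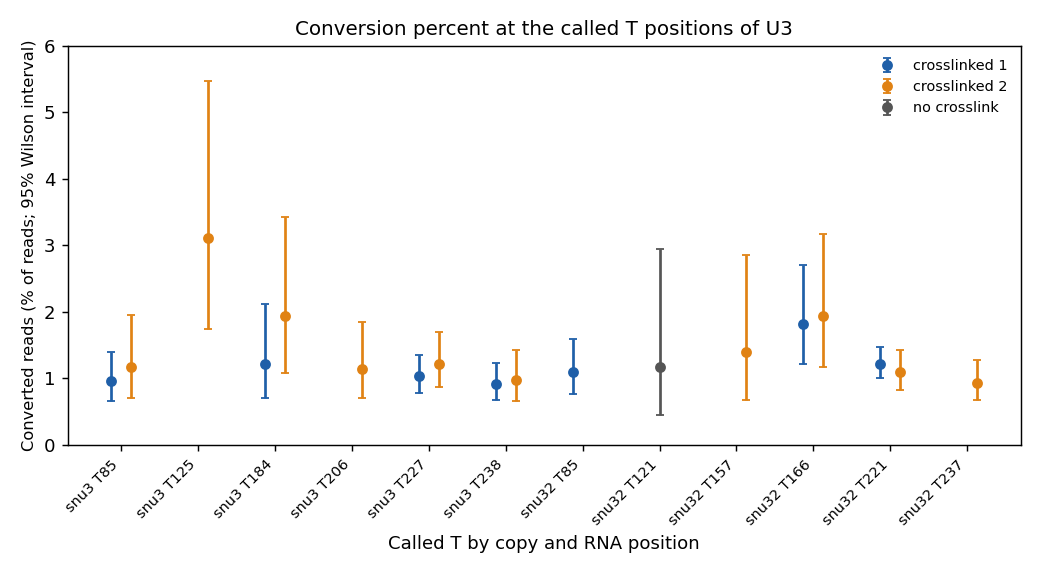
Converted reads as a percent of reads, with 95% Wilson intervals (y axis), at each called T of both copies (x axis, copy and RNA position), in crosslinked replicate 1 (blue), crosslinked replicate 2 (orange) and the control (grey). Where a position was called in both crosslinked libraries the intervals overlap, and most values lie between 0.914% and 1.94%, with position 125 of snu3 at 3.11%.

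The conversion percent of U3 was in the range of other deeply covered positions. Over the 460 and 211 nuclear positions with at least 300 reads, the median was 1.20% (quartiles 1.03 and 1.54) in crosslinked replicate 1 and 1.31% (1.08 and 1.93) in crosslinked replicate 2. The 6 U3 positions of crosslinked replicate 1 lay between 0.914% and 1.81%, and the 9 of crosslinked replicate 2 between 0.928% and 3.11%. In the control the median over 17 such positions was 1.44%, and the single U3 position had 1.16%.

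The share of all conversions that fell in each copy was then set against the other replicate. snu3 held 0.561% (0.463 to 0.679) of the conversions of crosslinked replicate 1 and 0.9% (0.737 to 1.1) of those of crosslinked replicate 2. The difference did not pass over the 1663 genes with calls in both (Fisher exact p = 8.88e-04, adjusted p = 0.0997), of which 0.421% were called. It passed where positions of 1 converted read were left out (adjusted Fisher exact p = 0.00284) or those under 20 reads (0.00144). These settings left fewer genes to test, and 20 of 534 and 19 of 406 were called. Positions of 1 converted read held 3399 of 18539 nuclear conversions in crosslinked replicate 1 and 3089 of 10672 in crosslinked replicate 2. Leaving them out therefore also changed the totals that the shares are taken of, by a larger part in crosslinked replicate 2. snu32 held 0.836% (0.715 to 0.978) and 1.03% (0.856 to 1.24), with an adjusted p of 1.0 by the same Fisher exact test. By count snu3 had 104 conversions in crosslinked replicate 1 and 96 in crosslinked replicate 2, of which 16 and 11 were at the 2 positions called in the latter alone.

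Split between the copies, 59.8% (53.8 to 65.6) of the U3 conversions of crosslinked replicate 1 were in snu32 (155 against 104) and 53.4% (46.6 to 60.1) of those of crosslinked replicate 2 (110 against 96). By reads summed over called positions the snu32 share was 54.2% and 56.6%. The annotated snu3 leaves out the first 122 bases of the stretch, in which 1 position was called. With it, the split was 54.4% (48.6 to 60.1) and 50.0% (43.4 to 56.6), and both intervals then included equal parts.

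That position is base 85 of the snu3 stretch (I 987863), 38 nt before the annotated start and so the nearest call outside the rule. It was converted in 26 of 2733 reads (0.951%, 0.65 to 1.39) of crosslinked replicate 1 and in 14 of 1201 (1.17%, 0.696 to 1.95) of crosslinked replicate 2, and it was not called in the control. It is the partner of position 85 of snu32, inside TGATGA, shown here with 12 bases on each side.
snu3, base 85: caacacggatgaTgataggaggcac
snu32, base 85: caacacggatgaTgatagaaggcac

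In crosslinked replicate 1 both partners were called, and the percent in snu32 exceeded that in snu3 by 0.149 points (Newcombe 95% interval -0.405 to 0.72). Reads numbered 2545 and 2733. In crosslinked replicate 2 only the snu3 partner was called. Since the first difference between the copies comes 6 nt after base 85, reads that end before it fit both genes: 14 of the 20 windows of 20 nt that cover this base occur once in the genome, and 24 of 30 for 30 nt.

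Base 85 and the box D side of the RNA were the places where both copies were called at partner nucleotides. Position 238 of snu3 and position 237 of snu32 are partners, and both were called in crosslinked replicate 2, where snu32 minus snu3 was -0.0416 points (Newcombe 95% interval -0.565 to 0.426). Their surroundings are identical over 31 nt, which run to the last base. Of the windows inside the RNA that cover each, 17 of 19 for 30 nt occur once in the genome, but only 7 of 19 for 20 nt. In crosslinked replicate 1 only the snu3 partner was called. Inside the annotated genes this is the 1 pair of partners called in both copies.

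The other called positions had a T as partner in the other copy, but that T was not called. The case with most conversions was position 221 of snu32, whose partner is base 222 of the snu3 stretch. In that region snu3 had up to 4855 reads. The 2 sites are shown with the T in capitals. The base after the T is substituted, written A223G with the snu3 base first.
snu32, base 221: tccttttggtcgTgtcatgtagggc
snu3, base 222: tccttttggtcgTattatgtagggc

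The reverse case was position 227 of snu3, called in both libraries with 50 and 33 conversions, whose partner at base 226 of snu32 was not called. Substitution T225C lies near it. Positions 166 of snu32 and 184 of snu3 were likewise called in both libraries in 1 copy only, and both have a G next in either copy. Read counts at uncalled positions are not listed, so these contrasts between copies could not be tested.

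Called T positions of U3 were mostly followed by G. This held for 9 of the 11 T positions called in a crosslinked library in the stretch and snu32 together (81.8%), against 45 of 186 T positions of both RNAs (24.2%) and 19.3% of all T in the nuclear genome. The exceptions were position 125 of snu3 and position 157 of snu32, each called in crosslinked replicate 2 alone. The control's position 121 of snu32 was followed by T as well. Among the 11 is base 85 of the snu3 stretch, outside the rule. The 11 also hold both partners at base 85 and at positions 238 and 237, in stretches identical between the copies, so they are not separate observations. Over all nuclear positions with at least 300 reads the share was 42.2% and 39.3% in the crosslinked libraries and 17.6% of 17 in the control. RNase T1, with which the RNA was trimmed, cuts after G. The part of this cutting in where positions were called was not tested.

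Called positions lay in both paired and unpaired parts of the predicted fold. In the structure ensemble of ViennaRNA, 4 of the 6 called T positions of the snu3 stretch and 3 of the 5 of snu32 had an unpaired probability over 0.5, against 47 of 95 and 40 of 93 of all T. Base 85 was predicted unpaired in both copies (0.937 and 0.936), as were positions 238 and 237 (0.998 each). Positions 227 of snu3 (0.003) and 221 of snu32 (0.001) were predicted paired. The prediction takes no account of the proteins or of pairing with the rRNA precursor.

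The authors' occupancy divides conversions by the depth of a reference library that the sources used here do not name. That depth was 100006 at most over all 11250 called positions, with a median of 160. Of the 11 U3 positions 10 had a reference depth between 97554 and 100006, against 47 positions (0.418%) within 3% of the highest over all. The other was position 85 of snu32, with 16707, and base 85 of the snu3 stretch had 16361. Occupancy in U3 was thus nearly a fixed fraction of the conversions, from 7.06e-05 to 0.00104 in the crosslinked libraries outside base 85, and 0.00168 at position 85 of snu32. The sources used here do not state a ceiling on the reference depth.

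The proteins that work with U3 were examined through their mRNAs, with a list of 61 names, 46 of which matched a protein-coding gene. Of these 46, 18 had a call in both crosslinked libraries (39.1%), against 29.9% of all 5113 protein-coding genes. In single libraries it was 29 in crosslinked replicate 1 (63.0%, against 52.4% of all) and 26 in crosslinked replicate 2 (56.5%, against 43.6%). Restricted to positions with at least 2 conversions in both libraries, it was 6 (13.0%) against 8.06%, and in the control it was 0 against 1.21%. These are calls in mRNAs, and they say nothing of binding to the proteins.

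Among the box C/D core proteins, nop58, a scaffold of the particle, had 10 conversions in 197 reads in crosslinked replicate 1 and 2 in 13 in crosslinked replicate 2. fib1, the methyltransferase fibrillarin, had 4 in 187 and 5 in 55. nop56, the partner of nop58, had 2 in 43 in crosslinked replicate 1 alone, and snu13, which binds the kink-turn of box C/D RNAs, had 3 in 6 in crosslinked replicate 2 alone. Their counts are far under those of the RNA itself.

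rrp9, the U3-specific protein that binds the B and C boxes, and mpp10, of the complex that U3 recruits, had 0 calls in each library. imp3 had 1 conversion in 3 reads in crosslinked replicate 1 alone and imp4, its companion in the Mpp10 complex, 1 in 3 in crosslinked replicate 2 alone. No gene of the list was called in the control.

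On the opposite strand of both loci 0 positions were called in any library, including the stretch where the annotated non-coding RNA SPNCRNA.2435 runs against snu3 (I 987693 to 987971, plus strand).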

How the data were processed

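PAR-CLIP values came from 3 libraries, each a table of called positions; the 6 RNA-seq samples were not analysed here. The authors' deposited counts per position are converted reads (T to C) and all reads covering it; the file headers name them by single letters, and this reading rests on the values. The authors' deposited p-value per call reached 0.00499 at most. The authors' deposited occupancy is a ratio of conversions to a whole number read as a reference depth. Bowtie 1.1.1 and SAMtools were used with build ASM294v2, per the submitters' processing notes; the sources used here do not name the site caller, its thresholds or its treatment of repeated matches. The tables hold 6661, 4824 and 135 positions with 19348, 11134 and 919 conversions (crosslinked replicates 1 and 2, control), of which 3399, 3089 and 0 nuclear positions rest on 1 converted read. Library depth is unknown because the tables hold called positions alone, and a position may be missing for lack of reads. The reference was RefSeq ASM294v3; nuclear calls fell on a T of the given strand in 6560 of 6560, 4742 of 4742 and 127 of 127 cases, so its coordinates were used.

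Shares are of nuclear conversions, and a position in overlapping sense genes counts for each. Copies were aligned with Biopython 1.88 (match 2, mismatch -3, gap opening -5, extension -2): the annotated genes globally with free end gaps, which paired 133 bases, and snu32 locally within 600 nt of snu3, a choice made after the displaced annotation was seen. Windows of 20, 30 and 40 nt were counted in the nuclear genome on both strands. Positions and genes called in both of 2 libraries were compared by two-sided Fisher exact tests (SciPy 1.17.1) with Benjamini-Hochberg adjustment over all of them and a threshold of 0.05; both tests were tried on simulated data. Intervals are 95% Wilson, or Newcombe for differences (statsmodels 0.14.6), and folding used ViennaRNA 2.7.2. Named items were both copies, all their called positions, the core and Mpp10 proteins, 4 motifs and the structural RNA genes next in rank. The members and lists were chosen with earlier results of these data known.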

Additional observations from a re-analysis of the deposited data

Results flagged for a closer look

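A position outside the annotated gene was called in both crosslinked libraries: base 85 of the chromosome I stretch that aligns with snu32 had 26 conversions in crosslinked replicate 1 and 14 in crosslinked replicate 2, and it was not called in the control, for which no value there is listed. It lies 38 nt before the annotated snu3 start, so sums over the annotated gene leave it out.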

How the results depend on the processing

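The share of conversions rose where positions of little coverage were left out, since these lie outside U3: with at least 2 conversions it was 0.976% for snu3, 1.24% for snu32 and 2.21% for both, and with at least 20 reads 1.07%, 1.36% and 2.43%. Outside rRNA and tRNA the shares were 1.19% for snu32 and 2.12% for both. Leaving out a replicate gave 0.561% to 0.9% for snu3, 0.836% to 1.03% for snu32, 1.40% to 1.93% for both and 53.4% to 59.8% for the part of snu32. With the aligned stretch in place of the annotated snu3, an alternative added once the values had been seen, partner positions called in both copies rose from 1 to 2, the shares of snu3 and of both became 0.866% and 1.80%, and the part of snu32 52.2%. Genes that differed between the crosslinked libraries numbered 7 of 1663, or 20 of 534 with at least 2 conversions and 19 of 406 with at least 20 reads. Genes that differed from the control numbered 29 of 91 for crosslinked replicate 1, or 19 of 56 with at least 20 reads and 41 of 70 outside rRNA and tRNA. For crosslinked replicate 2 they numbered 20 of 81, or 14 of 54 and 36 of 61. The snu32 comparison with the control reversed outside rRNA and tRNA for crosslinked replicate 1 (adjusted Fisher exact p = 0.808). The cause of these gene counts was not tested. U3 protein genes called in both libraries were 18, or 6 with at least 2 conversions, and 26 (56.5%, against 43.6% of all protein-coding genes) to 29 (63.0%, against 52.4%) in 1 library. The tables list called positions alone, so a U3 position absent from a library cannot be read as unconverted. No paired analysis was possible, because the control is 1 library and no label pairs it with a crosslinked library. The RNA-seq samples were not analysed here.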
